A study of Drosophila melanogaster with 27 samples.

Results

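Suppressor of Hairless, Su(H), is the DNA-binding protein through which Notch signalling acts on genes in the fly. When the Notch receptor is activated its intracellular part is cut free, enters the nucleus and joins Su(H) and Mastermind on DNA, and without that signal Su(H) works with the co-repressor Hairless. In larval neuroblasts, the stem cells of the fly brain, Notch signalling keeps the stem cell state, and the genes best known to answer to it there include deadpan (dpn), klumpfuss (klu) and the basic helix-loop-helix genes of the Enhancer of split, E(spl), complex.

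Binding of Su(H) was measured by CUT&RUN, in which an antibody brings a nuclease to the protein so that only the DNA beside it is cut out and sequenced. The series holds 27 samples, of which 2 are Su(H) samples, and 12 samples are peak lists of 6 antibodies in the same kind of brain (Su(H), FruC-Myc, FruCOM, Trl, Su(z)12 and Caf-1, 2 replicates each). Every one of these brains came from a larva in the third instar, was brat-null (brat11/Df(2L)Exel8040), which fills the brain with supernumerary type II neuroblasts, and carried the fruC::myc knock-in allele, so no sample here has an unmodified brat or fru locus. Each Su(H) sample was made from 50 dissected brains with a mouse antibody to Su(H) followed by a rabbit antibody to mouse IgG. The brains are enriched for type II neuroblasts but hold other cells too, so a region bound in few cells and a region bound weakly in all cells cannot be told apart.

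The replicate lists held 611 peaks in replicate 1 and 513 peaks in replicate 2. A reproduced region was a stretch where peaks of both replicates shared at least 1 bp, merged across both, and there were 393 of these. They took in 397 of the replicate 1 peaks and 400 of the replicate 2 peaks, while 214 peaks were in replicate 1 only and 113 in replicate 2 only. The strength of a peak is its fold enrichment at the summit over the local background, as the peak caller gave it. Just inside the rule stood the region at brinker (brk), a repressor of Dpp target genes, whose peaks shared 1 bp (fold enrichment 6.06 in replicate 1 and 6.21 in replicate 2) and the region in an intron of numb, whose peaks shared 2 bp (5.92 and 7.05). Just outside it were pairs of peaks at svp and at IntS6, each 4 bp apart. The counts depend on asking for both replicates: replicate 1 alone had 611 peaks with 328 nearest genes and replicate 2 alone 513 peaks with 248, where the 393 reproduced regions had 183. For CUT&RUN the study's methods say only that samples were made in duplicate. Their statement that biological replicates were collected and processed apart stands in the section on cell counts and image quantification. The labels do not say whether the larvae came from separate crosses.

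The 393 regions fell into sequence of very different kinds. A region was called unique where all of the following held. None of the 31-base words in the 131 bp centred between its replicate summits occurred anywhere else in the genome. The window was not a simple repeat (at least 64 distinct 6-base words). The region lay on a major chromosome arm or the fourth chromosome, not on Y or the mitochondrial genome. This measure was chosen after the data were seen. By this measure 95 of 393 regions (24.2%, 95% Wilson interval 20.2 to 28.6%) were unique and 298 were not. Such intervals cover counting error only. They treat regions as independent, although many of the 298 are copies of a few repeated sequences. Of the peaks found in a single replicate, 140 of 214 (65.4%) in replicate 1 and 63 of 113 (55.8%) in replicate 2 were unique, so the unique share was lower among the reproduced regions than among the peaks that were not reproduced.

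The sequences under the regions show this directly. Printed first are the most strongly enriched region of a tandem repeat on 3R, a simple repeat on Y, and a pair of places on X that hold nearly the same sequence. All sequences are from the NCBI RefSeq genome of Release 6, plus strand. In the region nearest to Myo81F (chr3R:202420-202520) capitals mark the word GTCCCGTACT, in the intron of the Y-linked dynein gene kl-5 (chrY:132505-132605) they mark GAGAAGA, and in the intron of alpha-Man-Ia (chrX:10302457-10302577) and upstream of CG9689 (chrX:9881204-9881324) they mark the 84 bases that both windows share.
Myo81F: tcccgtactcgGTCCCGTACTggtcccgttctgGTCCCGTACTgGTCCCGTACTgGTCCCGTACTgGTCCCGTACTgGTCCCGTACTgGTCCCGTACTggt
kl-5: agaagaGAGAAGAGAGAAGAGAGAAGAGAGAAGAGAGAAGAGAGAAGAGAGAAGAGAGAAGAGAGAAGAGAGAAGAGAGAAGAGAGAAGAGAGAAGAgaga
alpha-Man-Ia: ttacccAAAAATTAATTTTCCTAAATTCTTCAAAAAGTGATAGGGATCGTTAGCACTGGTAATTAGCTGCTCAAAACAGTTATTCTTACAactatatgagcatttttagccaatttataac
CG9689: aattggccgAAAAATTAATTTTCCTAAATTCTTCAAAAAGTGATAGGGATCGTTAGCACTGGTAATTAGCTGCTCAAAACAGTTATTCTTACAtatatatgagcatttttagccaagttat

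The unique regions, in contrast, include promoters and introns of Notch pathway genes. In the windows printed next, 201 bp centred between the summits of both replicates, capitals mark the words GTGGGAA and GTGAGAA on either strand. These are the high-affinity Su(H) recognition sequence YGTGRGAA (Y is C or T) without its first base. That first base was not required, so a word need not be a full match. Shown are E(spl)mgamma-HLH (chr3R:25999410-25999610), E(spl)m7-HLH (chr3R:26036367-26036567) and E(spl)mbeta-HLH (chr3R:26006142-26006342), then an intron of Delta (chr3R:19321765-19321965), the farther of the regions upstream of klu (chr3L:11011754-11011954) and an intron of N, the Notch gene itself (chrX:3162241-3162441). Each of these windows holds a word, as do only 14 of the 95 unique regions, so they are not typical of the unique regions.
E(spl)mgamma-HLH: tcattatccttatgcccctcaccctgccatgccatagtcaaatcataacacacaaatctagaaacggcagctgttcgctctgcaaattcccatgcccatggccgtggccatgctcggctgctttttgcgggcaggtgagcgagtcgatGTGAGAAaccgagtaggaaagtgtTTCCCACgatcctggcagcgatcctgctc
E(spl)m7-HLH: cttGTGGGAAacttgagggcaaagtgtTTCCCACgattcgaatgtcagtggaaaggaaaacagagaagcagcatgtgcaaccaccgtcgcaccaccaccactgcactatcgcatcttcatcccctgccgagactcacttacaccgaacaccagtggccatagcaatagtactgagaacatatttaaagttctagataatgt
E(spl)mbeta-HLH: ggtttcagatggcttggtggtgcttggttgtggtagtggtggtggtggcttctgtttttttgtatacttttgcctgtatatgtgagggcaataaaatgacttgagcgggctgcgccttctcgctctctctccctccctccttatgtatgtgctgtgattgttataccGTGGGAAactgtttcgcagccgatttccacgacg
Delta: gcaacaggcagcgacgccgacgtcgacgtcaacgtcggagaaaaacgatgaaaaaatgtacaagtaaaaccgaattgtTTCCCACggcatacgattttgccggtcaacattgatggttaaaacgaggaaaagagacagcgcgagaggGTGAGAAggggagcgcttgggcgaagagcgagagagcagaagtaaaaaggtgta
klu: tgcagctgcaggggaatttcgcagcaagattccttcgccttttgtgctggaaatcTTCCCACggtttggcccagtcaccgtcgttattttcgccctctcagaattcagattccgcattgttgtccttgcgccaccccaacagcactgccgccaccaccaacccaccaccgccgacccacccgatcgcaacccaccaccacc
N: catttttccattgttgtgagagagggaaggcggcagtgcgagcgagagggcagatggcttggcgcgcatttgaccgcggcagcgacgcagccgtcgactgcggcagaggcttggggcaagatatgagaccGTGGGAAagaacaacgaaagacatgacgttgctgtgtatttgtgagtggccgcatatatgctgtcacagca

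In E(spl)mgamma-HLH and E(spl)m7-HLH the words form a head-to-head pair with the same spacing, 17 bp between them. These are aligned here over the 31 bp from the first base of one word to the last base of the other (chr3R:25999558-25999588 and chr3R:26036370-26036400), since their arrangement is the paired Su(H) site known from Notch-responsive E(spl) genes.
E(spl)mgamma-HLH pair: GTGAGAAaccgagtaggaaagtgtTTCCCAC
E(spl)m7-HLH pair: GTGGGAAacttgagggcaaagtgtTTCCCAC
The Delta intron also held 2 words, in the opposite orientation and 62 bp apart. Its GTGAGAA follows a G, so it is not a full match to YGTGRGAA. Of the 95 unique regions these 3 were the only ones with more than 1 word in the window.

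The strongest Su(H) regions were not in unique sequence. Of the 20 regions with the highest mean fold enrichment none was unique, and of the top 50 only 1 was. Leaving out the 38 regions in H3K9me3 domains with −log10 Q-value above 100, the highest 20 still ran from 33.2 to 85.6. Their nearest genes were alpha-Man-Ia, kl-5, CG46302, Pkcdelta, CG14621, CCY, CG9689, CG45061, 2SrRNA:CR45864, ORY, RhoU, scro, Hecw, CR41597, Ppr-Y, CR40190, CG34028, Myo81F and CG1986. The region in the alpha-Man-Ia intron had a fold enrichment of 85.3 in replicate 1 and 85.8 in replicate 2, and the one in the kl-5 intron 77.9 and 77.0. Each of these 20 regions also had a peak in 9 or 10 of the 10 lists of the other 5 antibodies. In the alpha-Man-Ia intron the highest of those lists reached 99.9, above Su(H).

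Sorted by shared 31-base words, the repeated regions formed a few large families. The largest had 94 members, all on 3R between positions 616 and 505792 and all nearest to Myo81F, at a median fold enrichment of 5.06 (range 2.57 to 33.5). Every one of the 94 held GTCCCGTACT, part of the dodeca satellite known from the heterochromatin of the third chromosome. The word was picked as the commonest 10-base word of these same regions, so its presence describes them and tests nothing. It was in 0.171% of 201-bp windows of the arms and Y, and no region outside this family held it. The next had 57 members (29 on 3L, 21 on X, 4 on 2L and 3 on 2R), AT-rich at a median GC content of 31.3%, and includes the alpha-Man-Ia and CG9689 sequences printed above, with a median fold enrichment of 15.4 (range 3.70 to 85.6). A family of 14 lay in the rRNA gene cluster on X, at a median of 12.4. A family of 9 on Y, 2R and 3R was built of the AAGAG repeat, at a median of 33.9, and another family of 9, near Map205 and CG9380, lay in annotated copies of the transposable element invader4 in 6 members. The mitochondrial genome gave 11 regions, at 2.14 to 3.98.

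**Figure D1:**
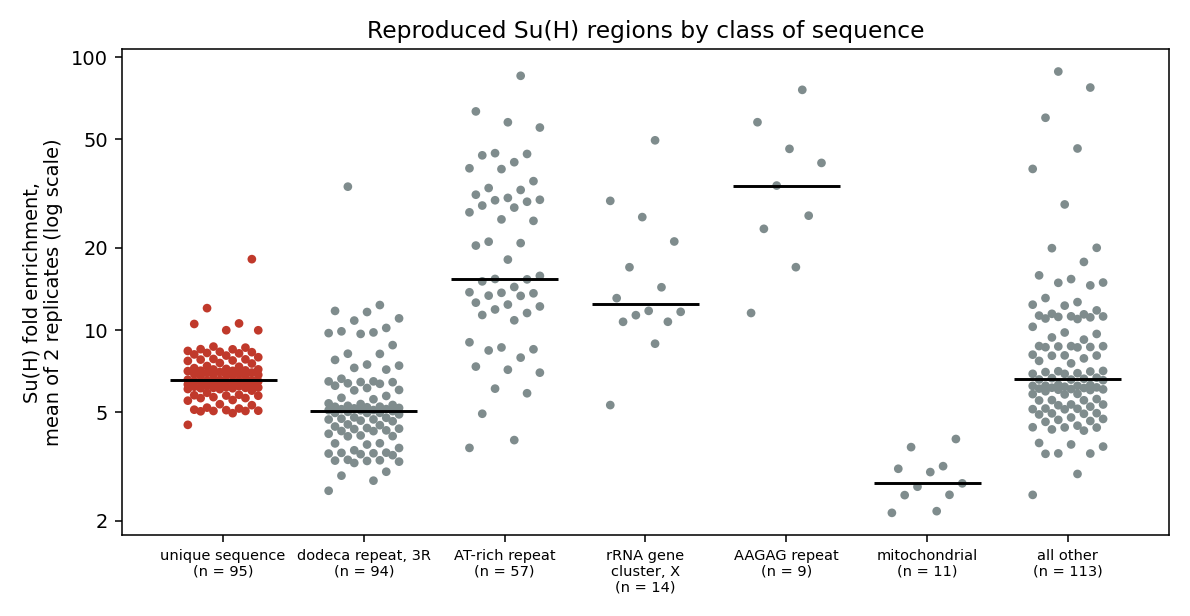
Mean Su(H) fold enrichment of each of the 393 reproduced regions (log scale), by class of sequence, with unique regions in red and a bar at each median. The 95 unique regions sat between 4.49 and 18.2, below much of the AT-rich and AAGAG repeats, which reached 85.6 and 76.0.

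Genes counted as nearest to several regions were mostly neighbours of these families. The 393 regions had 183 nearest genes by start site, 0.999% of the 18315 genes annotated, and 144 of them were nearest to 1 region each. By contrast 19 genes with 3 or more regions took 209 of the 393. Outside the strong H3K9me3 domains 18 genes had 3 or more, led by Myo81F with 83, FBtr0473838_df_nrg with 20, CG40228 with 15 and CR41597 with 10. After these came 28SrRNA-Psi:CR40741 with 6, Map205 with 5, and CG14621, scro, 28SrRNA-Psi:CR45862, 28SrRNA-Psi:CR41609, CG9380 and lncRNA:CR43242 with 4 each. CR40190, CG15233, Ppr-Y, CR45946, lncRNA:CR45199 and 2SrRNA:CR45864 had 3 each. Only CG15233 in that group owed all 3 to unique regions, and these lay inside introns of jing, a gene for a zinc-finger transcription factor. Among unique regions SoxN and klu had 2 nearest regions each, and CG18508 had 2 that lay within N.

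H3K9me3, the histone mark of constitutive heterochromatin, followed the same division. Of all reproduced regions 38 of 393 (9.67%, 7.13 to 13.0%) overlapped an H3K9me3 domain above a −log10 Q-value of 100, and 261 (66.4%, 61.6 to 70.9%) overlapped an H3K9me3 peak of any Q-value. Of the unique regions 0 of 95 overlapped a strong domain and 17 (17.9%, 11.5 to 26.8%) overlapped a peak of any Q-value. Those 17 included the regions of the developmental genes tll, wor, btd, erm, opa, svp, hth and Ser, and also others such as those of HmgZ, CG13305 and lncRNA:CR43334.

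**Figure D2:**
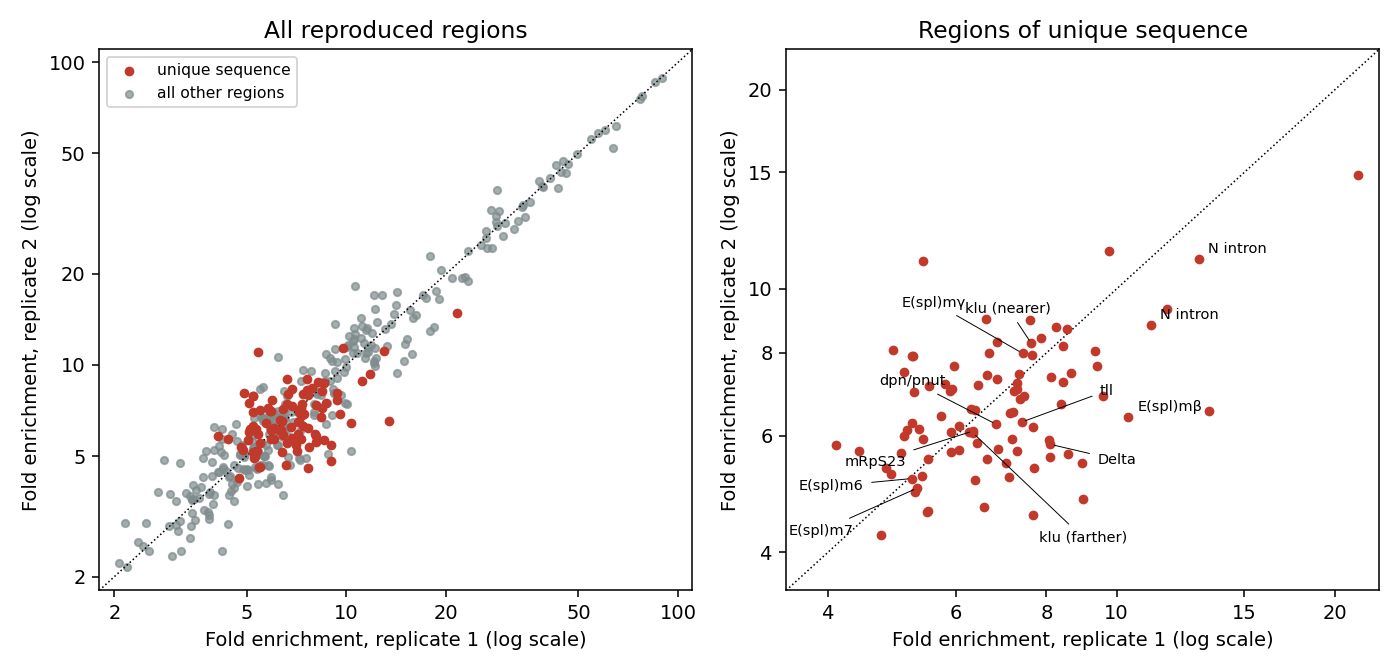
Fold enrichment in replicate 1 against replicate 2 on log axes, for all 393 reproduced regions (left) and for the 95 unique regions with Notch-related genes labelled (right); the dotted line marks equal values. Scatter about the line was similar, with a median ratio of higher to lower value of 1.18 for unique regions and 1.12 for the others. Unique regions cover a narrower range of values, with a Spearman rho of 0.372.

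Rank agreement between replicates also differed. The fold enrichment of the replicates had a Spearman rho of 0.372 across the 95 unique regions, 0.945 across the 298 others and 0.897 across all 393 (regions share libraries and are not independent replicates). The higher of the 2 values exceeded the lower by a median of 1.18-fold among unique regions and 1.12-fold among the others. The largest excess was 2.05-fold and 1.98-fold. Mean fold enrichment ran from 2.14 to 88.7 among the others, so the rho values cover unlike ranges. Among unique regions it ran from 4.49 to 18.2 with a median of 6.56 and quartiles of 6.07 and 7.55. The order of most unique regions therefore lies within the spread of the replicates. Highest stood an intergenic region nearest to CG14621 (21.5 and 14.9), an N intron region (13.0 and 11.1), disco (9.76 and 11.4), CG13305 (11.7 and 9.31), lncRNA:CR30009 (13.4 and 6.54) and a further N intron region (11.1 and 8.82).

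Unique regions were at promoters more often than the rest. A promoter was taken as 1000 bp before to 100 bp after a start site, and 50 of 95 unique regions (52.6%, 42.7 to 62.4%) were in one, against 18 of the 298 others (6.04%, 3.85 to 9.34%) and 14.6% of positions on the arms. A further 22 were in introns, 16 were intergenic, 4 were at a transcription end and 3 in exons. Over all 393 regions 68 (17.3%, 13.9 to 21.4%) were at promoters and 239 (60.8%) were intergenic. The median distance from a unique region to the nearest start site was 496 bp, and 23 of the 95 were at least 5000 bp away. Besides the genes named elsewhere, promoters with a region included those of Su(z)2 and Psc, which code for Polycomb group proteins, kis, which codes for a chromatin remodeller, nej, the CBP acetyltransferase gene, zld, the gene of a pioneer factor, dac and noc, and insb, whose product inhibits Notch signalling together with Su(H).

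The Su(H) words were similarly divided. A word was sought within 100 bp of the midpoint of the replicate summits, which in unique regions lay a median of 26 bp and up to 254 bp apart. It was found in 14 of 95 unique regions (14.7%, 8.99 to 23.2%) and in 4 of the 298 others (1.34%, 0.523 to 3.40%), 18 of 393 in all (4.58%). Many of the 298 are copies of the same repeats, so they are not 298 separate sequences. In unique regions the word centres lay from 19 bp (CG5910) to 94 bp (E(spl)m7-HLH) from the midpoint. A word in the window was therefore not always at the summit. The same words were in 4.32% of all 201-bp windows of the arms and in 4.30% of windows centred on start sites of protein-coding genes. Ranked by fold enrichment and cut into equal parts, 7 of the 31 highest unique regions held a word, 4 of the 32 in the middle and 3 of the 32 lowest, with intervals that overlap. Peaks in 1 replicate only held a word in 11 of 140 unique cases (7.86%, 4.44 to 13.5%) for replicate 1 and in 6 of 63 (9.52%, 4.44 to 19.3%) for replicate 2. A match is a description of the sequence, and the other 81 unique regions lack these letters in this window only. The word GAGAG, the core of the sequence that Trl binds, was in 59 of the 95 unique regions (62.1%, 52.1 to 71.2%), against 21.5% of windows of the arms.

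Unique regions near Notch pathway genes held most of the words. Over the E(spl) complex, the Bearded complex, Notch targets elsewhere and the core of the pathway, 14 unique regions lay within 5000 bp of a gene body, and 8 of these 14 (57.1%, 32.6 to 78.6%) had a word. Of the 81 unique regions farther away 6 had one (7.41%, 3.44 to 15.2%). None of the 298 other regions lay that close to a gene of these lists. Those regions were set apart by repeated sequence or by lying on Y or the mitochondrial genome. Their absence near these genes therefore describes where they lie and tests nothing. The 6 words away from listed genes were at egr, the fly TNF, at lncRNA:CR30009, CG13305, Rgl and CG5910, and within plum.

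The E(spl) complex spans 43.4 kb of 3R and encodes basic helix-loop-helix repressors and small Bearded-family proteins. By nearest start site 4 of its 12 genes had a reproduced region, namely E(spl)mgamma-HLH, E(spl)mbeta-HLH, E(spl)m6-BFM and E(spl)m7-HLH, beside 0.999% of all genes, and the count was again 4 when only start sites of protein-coding genes were used, beside 1.12% of such genes. Only E(spl)mgamma-HLH, 1 of the 4, had a region when each peak needed a −log10 Q-value above 10, beside 76 of all 18315 genes. Within 5000 bp of the gene body 8 of 12 had one, beside 1.91% of all genes. Upstream of E(spl)mgamma-HLH, whose product is a marker of neuroblasts, fold enrichment was 7.42 in replicate 1 and 7.99 in replicate 2. At E(spl)mbeta-HLH it was 10.4 and 6.41, the widest gap in the complex. The regions at E(spl)m6-BFM (5.22 and 5.17) and E(spl)m7-HLH (5.31 and 5.00) were weaker than the others in both replicates, and the E(spl)m6-BFM window held no word.

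Another region of the complex, 0.7 kb before the start of E(spl)mdelta-HLH, was nearest to CG43116, had 1 word and reached 8.10 and 5.56. For this reason E(spl)mdelta-HLH counts among the 8 genes without a nearest region, together with E(spl)malpha-BFM, Kaz-m1 (the current symbol of E(spl)m1), E(spl)m2-BFM, E(spl)m3-HLH, E(spl)m4-BFM, E(spl)m5-HLH and E(spl)m8-HLH. The middle of the complex, from E(spl)malpha-BFM to E(spl)m4-BFM, had no region inside it. Besides the reproduced regions, replicate 1 alone had a peak of fold enrichment 4.12 near E(spl)m8-HLH and groucho (gro), the co-repressor gene next to the complex.

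**Figure D3:**
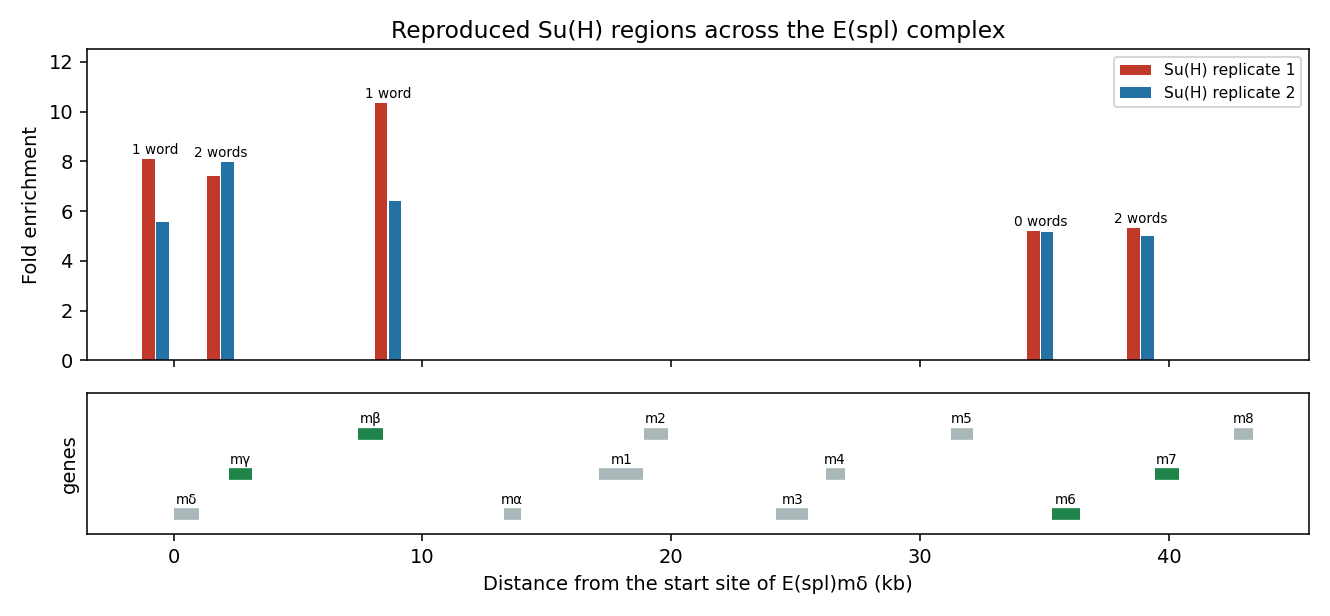
Fold enrichment of the 5 reproduced Su(H) regions across the E(spl) complex in replicate 1 (red) and replicate 2 (blue), with the number of Su(H) words in each window, against distance from the start site of E(spl)mδ in kb. The genes are drawn underneath, in green where a region is nearest to them; 3 regions sit at the mδ to mβ end and 2 at m6 and m7.

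Elsewhere 2 of the 19 listed Notch targets had a region by nearest start site, beside 0.999% of all genes. They were klu and tailless (tll), both transcription factor genes that act in neuroblasts. klu, a zinc-finger gene, had a region at -1325 bp from its start site (7.63 and 8.27) and another at -2664 bp (6.33 and 6.06), each with 1 word. tll, a nuclear receptor gene, had a promoter region (7.40 and 6.29) without a word. With replicate 2 alone 5 of the 19 had a nearest peak, beside 248 of all 18315 genes, and with replicate 1 alone 3, beside 328. A −log10 Q-value above 10 in both left 1, klu, beside 76 of all genes. Without a nearest reproduced region were dpn, grh, Myc, Hey, sim, rho, vg, wg, ct, sv, Sox15, zfh1, Him, twi, aop, neur and her. Peaks in a single replicate lay within 5000 bp of grh in replicate 1 (highest 7.69) and of ct in replicate 2 (4.97), and 14 of the 19 had no peak of either kind. No region lay within 5000 bp of Brd, Tom, Ocho or BobA, the 4 Bearded complex genes found in the annotation.

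dpn, a bHLH repressor gene that marks neuroblasts, had a peak of its own in a single replicate. A peak 1084 bp from its start site was called in replicate 2 only (6.92), held no word and overlapped peaks in 7 of the other lists. The reproduced region closest to it was 4423 bp from the dpn start site but 498 bp from that of pnut, a septin gene, to which nearest-start assignment gave it. Its fold enrichment was 6.82 in replicate 1 and 6.24 in replicate 2, and it too held no word.

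Within the core of the pathway the receptor and both of its ligand genes carried regions. Delta had one 4355 bp into its gene, in an intron (8.10 and 5.82, 2 words, not both full YGTGRGAA matches). Serrate (Ser), the other ligand, had one at its start (5.13 and 6.13, no word). numb, which codes for an inhibitor of Notch inherited by one daughter of a dividing neuroblast, had the intronic region just inside the overlap rule. In N both regions lay over 10 kb from the nearest start site, that of CG18508, so N itself is missed by nearest-start assignment. Of the 23 core genes 3 had a nearest region, beside 0.999% of all genes, and 4 had one within 5000 bp, beside 1.91%. Within 5000 bp mam and gro had a peak in replicate 1 only and fng in replicate 2 only. The other 16 had none, namely Su(H), H, CtBP, neur, mib1, kuz, Psn, Nct, aph-1, pen-2, dx, Su(dx), O-fut1, bib, spdo and rumi.

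Of 38 genes of the neuroblast lineage 13 had a nearest region, beside 0.999% of all genes, and 12 of them a unique one, beside 0.491%. These 12 were klu, tll, worniu (wor, 5.24 and 7.91), prospero (pros, 5.41 and 11.0), buttonhead (btd, 9.38 and 7.63), earmuff (erm, 7.28 and 5.69), hamlet (ham, 7.64 and 7.94), odd paired (opa, 7.16 and 5.93), castor (cas, 4.81 and 5.35), svp (5.09 and 7.48), homothorax (hth, 7.05 and 5.44) and zfh2 (5.91 and 5.67), all transcription factor genes. erm, ham and opa act in intermediate progenitors, pros ends self-renewal, and cas and svp mark time in the lineage. Aside from klu, none of these windows held a word. The remaining gene, scro, was nearest to 4 repeated regions at a distance of at least 39113 bp. Within 5000 bp pnt and grh had peaks in replicate 1 only, and D, fru and esg in replicate 2 only. Apart from dpn, the other genes of the list had no peak that close in either replicate: ase, mira, brat, ey, Syp, Imp, chinmo, br, vvl, nab, nerfin-1, CycE, stg, slp1, slp2, l(1)sc, sc, ac and hbn. Of 7 housekeeping genes 1 had a region, Act5C, at 4.73 and 4.24, the lowest mean of the 95 unique regions, while alphaTub84B, RpL32, Gapdh1, eEF1alpha1, SdhA and Tbp had none. These lists were put together for this tissue with earlier results in view, so their counts describe the regions and do not test them.

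**Figure D4:**
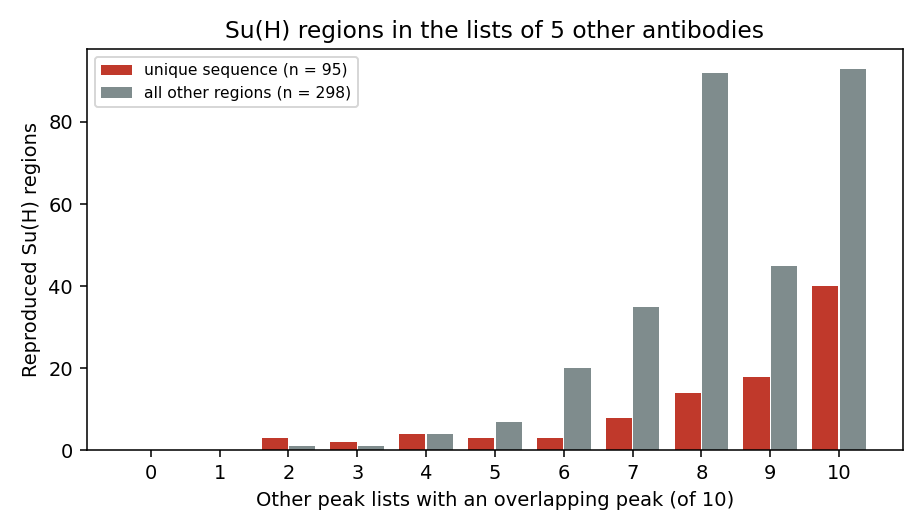
Number of reproduced Su(H) regions with an overlapping peak in 0 to 10 of the peak lists of FruC-Myc, FruCOM, Trl, Su(z)12 and Caf-1 (2 replicates each), for unique regions (red) and all others (grey). No region stood in fewer than 2 of the other lists, and 40 unique regions stood in all 10.

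Almost every Su(H) region was shared with the other antibodies. Every one of the 393 had a peak in at least 2 of the 10 other lists, 302 (76.8%) in 8 or more and 133 (33.8%) in all 10. These lists are not all separate factors. In the paper the FruC-Myc and FruCOM antibodies both detect FruC, and Su(z)12 and Caf-1 are both core parts of the Polycomb complex PRC2. Of the unique regions 72 of 95 (75.8%, 66.3 to 83.3%) were in 8 or more. FruC-Myc peaks of either replicate overlapped 383 of 393 regions (97.5%). The stricter measure, FruC-Myc reproduced regions, overlapped 310 of the 393 (78.9%), 217 of the 298 that were not unique (72.8%) and 93 of the 95 unique ones (97.9%). In the other direction those 93 were 2.07% of the 4501 unique FruC-Myc regions. Trl, with the shortest of the 5 other lists (647 reproduced regions), shared the fewest, 53 of 95 unique Su(H) regions (55.8%). These were overlapped by 52 of its own 514 unique regions (10.1%), the highest share in that direction. The same share was 7.56% for Caf-1, 5.38% for Su(z)12 and 4.31% for FruCOM. FruCOM reproduced regions overlapped 87 of the 95, Su(z)12 regions 73 and Caf-1 regions 64. The unique share of Su(H) regions, 95 of 393 (24.2%), was also the lowest of the 6 antibodies. It was 820 of 1368 (59.9%) for Caf-1 and 4501 of 4975 (90.5%) for FruC-Myc. By number, Caf-1, FruC-Myc, Su(z)12 and FruCOM each had more regions that were not unique than Su(H) had, and Trl had fewer. The source of this sharing was not tested, and no IgG peak list was used here.

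**Figure D5:**
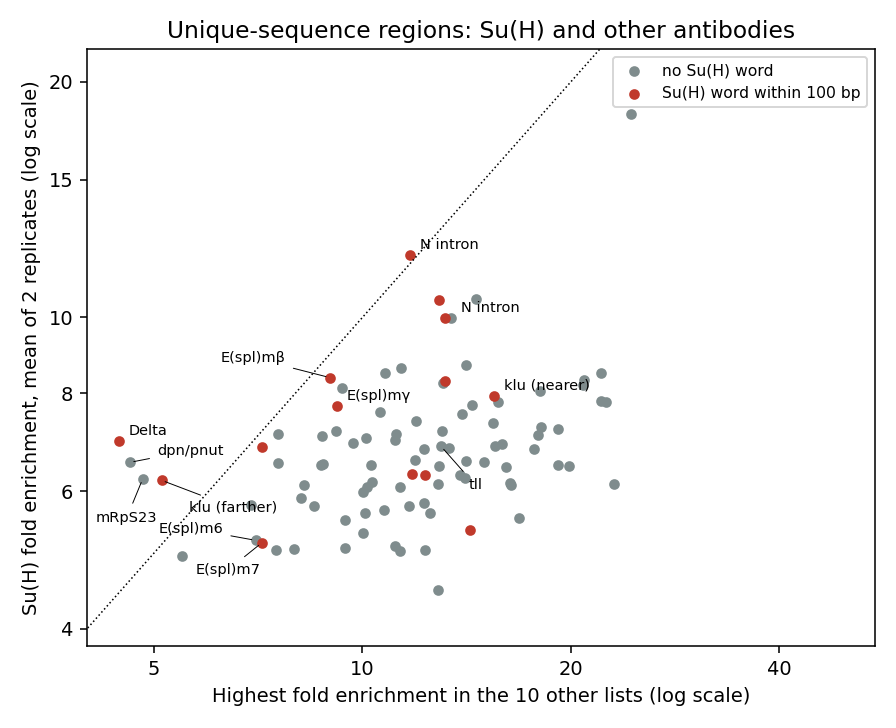
Mean Su(H) fold enrichment of the 95 unique regions against the highest fold enrichment of any of the 10 other lists at the same place (log axes), with regions holding a Su(H) word in red; on the dotted line both are equal. Delta, dpn/pnut, mRpS23 and the farther klu region stand left of the line and were above every other list in both Su(H) replicates, while the stronger N intron region stands just left of it by its mean only (13.0 in replicate 1 and 11.1 in replicate 2, against 11.7).

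In 4 unique regions Su(H) was above every other list in both replicates. They were the Delta intron, where the other lists reached 4.45, the farther klu region (5.13), the region near dpn and pnut (4.62) and the promoter of mRpS23, a mitochondrial ribosomal protein gene (Su(H) 6.34 and 6.10, others up to 4.82). Of these 4 regions 3 lay within 5000 bp of a listed Notch gene, beside 14 of all 95 unique regions (199 genes, 1.09% of all, had a unique region that close). At Delta and at the farther klu region peaks of FruC-Myc were the only others called, at 4.44 and 4.45 for Delta and at 4.05 and 5.13 for klu. Fold enrichment is set within each library, and the libraries' depths are unknown, so a higher value for one antibody is a description.

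Counting lists rather than comparing values gave a similar picture. Of the 9 unique regions with a peak in at most 4 other lists 5 were near a Notch gene (55.6%, 26.7 to 81.1%), those of Delta, klu, dpn/pnut, E(spl)m6-BFM and E(spl)m7-HLH. Of the 40 in all 10 lists 4 were (10.0%, 3.96 to 23.1%), namely the nearer klu region, Ser, tll and the weaker N intron region. Words were in 3 of those 9 and in 2 of those 40. The other antibodies reached 13.0 at tll and 15.5 at the nearer klu region, and at the promoters of btd and erm Trl was the highest, at 22.1 and 19.1. At each region of the 12 neuroblast lineage genes, the farther klu region excepted, another antibody gave a higher value than either Su(H) replicate.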

How the data were processed

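Per the labels and the methods, the authors kept CUT&RUN fragments under 120 bp and ran MACS2 separately on every replicate under CUT&RUNTools2 settings; the submitters' processing notes name FastQC, cutadapt, Bowtie2, SAMtools, bedtools and deepTools, and the build is BDGP6 (dm6). The deposited lists, in the standard narrowPeak layout, give a fold enrichment at the summit (a ratio over local background) and a −log10 Q-value. Read depth is not given in the sources used here, so no value carries a depth-based error. Per the methods H3K9me3 peaks were called in a similar way, and the deposited list is 1 file; how its replicates were joined is not spelled out in the sources used here. Tables of histone marks hold the authors' own comparisons (log2 fold changes and adjusted p-values) and were not used.

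Regions were built and annotated with Python 3.11.15 (numpy 2.4.6, pandas 2.3.3) and the Ensembl release 115 annotation of BDGP 6.54, without transposable element genes; interval code was checked against bedtools 2.31.1 on simulated data. H3K9me3 peaks with −log10 Q-value above 100 were merged within 3000 bp. Words were sought in either orientation up to 100 bp away from the midpoint of the replicate summits. Genes named were all listed genes, the genes nearest to the 20 strongest regions outside those H3K9me3 domains, and the genes nearest to 3 or more such regions; genes outside this rule, and the uniqueness measure, were chosen after their values were seen. Members and lists were chosen with earlier results of these data known. Alternatives were a stricter Q-value, a 50% overlap, either replicate alone, removal of H3K9me3, other annotation and other word windows. BobB and BobC were not matched to the annotation.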

Additional observations from a re-analysis of the deposited data

How the results depend on the processing

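Of 70 alternative values for 9 results, 43 stayed close to the reported value and 27 moved. Requiring a −log10 Q-value above 10 left 232 regions, 76 nearest genes, 5.60% at promoters, 1 E(spl) gene and 1 other Notch target, with a rho of 0.967. Single replicates (replicate 1 alone giving the higher number of regions and genes, replicate 2 alone that of Notch targets) gave 513 to 611 regions, 248 to 328 nearest genes, 19.9 to 24.9% at promoters, 7.69 to 8.58% in H3K9me3 domains, 4.68 to 5.24% with a word, 4 E(spl) genes, 3 to 5 other Notch targets and 95.7% overlapping FruC-Myc. Removing every H3K9me3 peak left 132 regions, 111 nearest genes, 38.6% at promoters, 10.6% with a word, 1 other Notch target, a rho of 0.784 and 100% overlapping FruC-Myc. Keeping only unique regions, chosen after seeing the data, left 95 regions, 90 nearest genes, 52.6% at promoters, 0% in H3K9me3 domains, 14.7% with a word, a rho of 0.372 and 100% overlapping FruC-Myc. H3K9me3 peaks of any Q-value overlapped 66.4%, 8 E(spl) genes had a region within 5000 bp, and FruC-Myc peaks above 100 overlapped 52.2%. Of the alternatives run on the 4 E(spl) genes, only the stricter Q-value lowered the count. No paired analysis was possible because the replicates belong to 1 group and no result comes from a test.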
